A study of Mus musculus with 5 samples.

Results

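The insulin-like growth factor (IGF) genes examined here were the ligands Igf1 and Igf2, the receptors Igf1r and Igf2r, and the binding proteins Igfbp2 to Igfbp7. These 10 genes were chosen by symbol from the 23420 gene symbols measured in the mouse dentate gyrus (DG), and all 10 were found. The libraries came from male wild-type CD1 mice, an outbred strain, labelled as 4 months old and housed for 4 weeks in their groups. LD mice lived alone with a locked running disk, CE mice (complex environment) lived in company with a locked disk and tunnels that were moved daily, and RUN mice lived alone with a disk they could run on. CE thus differs from LD in company and in tunnels, and these cannot be told apart. Each group gave 1 library of pooled RNA, from 8 mice each for LD, CE and RUN. The L-RUN and H-RUN libraries held RNA of the 4 RUN mice with the lowest and of the 4 with the highest running distances, so that every mouse in them was also part of the RUN pool. RUN is therefore no independent sample beside L-RUN and H-RUN, and no group had a replicate library.

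IGF1 and IGF2 are secreted growth factors that act through the tyrosine kinase receptor IGF1R, which signals through insulin receptor substrates to the PI3K-AKT and RAS-ERK branches. IGF2R has no such kinase, and it takes up IGF2 and carries it to lysosomes. The binding proteins hold IGFs in the extracellular space, where they prolong or restrict their action until proteases release them. In the adult hippocampus, IGF signaling is known for its role in neuronal survival, adult neurogenesis and the response to exercise.

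The deposited values are regularized log values, which are read counts normalized over all libraries, put on the log2 scale and shrunk towards the mean of each gene. Differences on this scale understate the change of genes with few reads. Read depth is unknown, because the values keep no counts, and with 1 library per group no p-value or interval can be given for any difference between groups. A gene was taken as expressed at a mean value of at least 5 over the 5 libraries, which held for 13550 genes and for 10 of the 10 IGF genes. The study took 0.3 (log2) as its cut-off, and a gene with a difference that large in either direction is said here to pass it. The spread that can be measured is technical. Because RUN is a pool of the L-RUN and H-RUN mice, its value can be set against one computed by mixing these libraries in equal parts, which gave a technical SD of a difference of 0.036 over expressed genes and of 0.022 to 0.047 by level of expression. It covers preparation and sequencing and not the differences between mice.

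All 10 markers of dentate granule cells were expressed, as the DG label asks, but so were the 8 markers of CA1 and CA3 pyramidal cells and all markers of astrocytes, microglia, oligodendrocytes and interneurons, so that their presence does not set the DG apart from other parts of the hippocampus. Libraries differed in markers of the leptomeninges, the membrane that covers the brain. The log2 of the summed linear level of 19 such markers was 12.78 for LD, 13.00 for CE, 13.58 for RUN, 14.10 for L-RUN and 12.66 for H-RUN. Of the 19, 16 reached the mean value of at least 5 taken as expressed. The marker values are given again beside the genes they touch.

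Of the 10 members, 4 passed the cut-off against LD in at least 1 group, as did 3.86% of expressed genes. They were Igfbp5 and Igfbp6 in all 3 running libraries, Igf2 in RUN and L-RUN, and Igfbp2 in L-RUN. The DNA just before their annotated starts is shown here because these genes carry the differences described below. The sequences are from RefSeq (GRCm38.p6, the mm10 build of the deposited values), 250 bases long (231 for Igfbp5, where 19 bases that GENCODE places in the first exon were left out), on the strand of the gene, with capitals for matches to any of 5 motifs on either strand. The motifs were TATAAA (the TATA box), GGGCGG (the GC box), CACGTG (the E-box), TGTTTAC (bound by FOXO factors) and TGACGTCA (the cAMP response element), and no match of one overlapped a match of another.
Igfbp5, chr1:72874885-72875115, minus strand: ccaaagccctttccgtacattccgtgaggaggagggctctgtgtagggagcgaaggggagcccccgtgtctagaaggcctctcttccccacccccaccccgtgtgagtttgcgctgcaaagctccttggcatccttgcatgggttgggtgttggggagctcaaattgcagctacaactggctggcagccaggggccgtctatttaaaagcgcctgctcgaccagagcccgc
Igfbp6, chr15:102143936-102144185, plus strand: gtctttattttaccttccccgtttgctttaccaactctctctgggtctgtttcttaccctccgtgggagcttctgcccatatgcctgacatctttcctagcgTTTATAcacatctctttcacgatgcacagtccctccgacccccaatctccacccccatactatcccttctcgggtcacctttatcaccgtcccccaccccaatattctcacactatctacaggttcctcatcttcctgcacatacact
Igf2, chr7:142657497-142657746, minus strand: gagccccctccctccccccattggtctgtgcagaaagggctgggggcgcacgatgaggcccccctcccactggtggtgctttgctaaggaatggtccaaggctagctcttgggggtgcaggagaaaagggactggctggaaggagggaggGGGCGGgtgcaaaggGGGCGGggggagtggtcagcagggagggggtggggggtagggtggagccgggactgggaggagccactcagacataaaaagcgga
Igfbp2, chr1:72824230-72824479, plus strand: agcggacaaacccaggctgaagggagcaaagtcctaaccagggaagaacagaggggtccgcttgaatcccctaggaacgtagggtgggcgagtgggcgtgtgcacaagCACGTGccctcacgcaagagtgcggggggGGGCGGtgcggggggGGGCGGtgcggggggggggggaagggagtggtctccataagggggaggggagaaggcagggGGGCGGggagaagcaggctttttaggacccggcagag
The Igfbp2 window held GGGCGG 3 times and CACGTG 1 time, the Igf2 window held GGGCGG 2 times, and the Igfbp6 window held TATAAA 1 time, on the reverse strand. The Igfbp5 window held none of these letters. Of 32851 promoter windows of 250 bases, 32.7% held GGGCGG, 12.4% TATAAA, 6.02% CACGTG, 3.17% TGTTTAC and 1.55% TGACGTCA. Igf2 had 4 starts with a window and Igfbp2 had 2. The window shown is the one with the largest number of annotated transcripts that begin within 50 bases (2 of 9 for Igf2 and 1 of 3 for Igfbp2). The other annotated transcripts of these genes begin elsewhere. The single annotated Igfbp6 transcript of GENCODE begins more than 50 bases from the RefSeq start used here. The values are totals per gene and do not tell these starts apart.

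**Figure D1:**
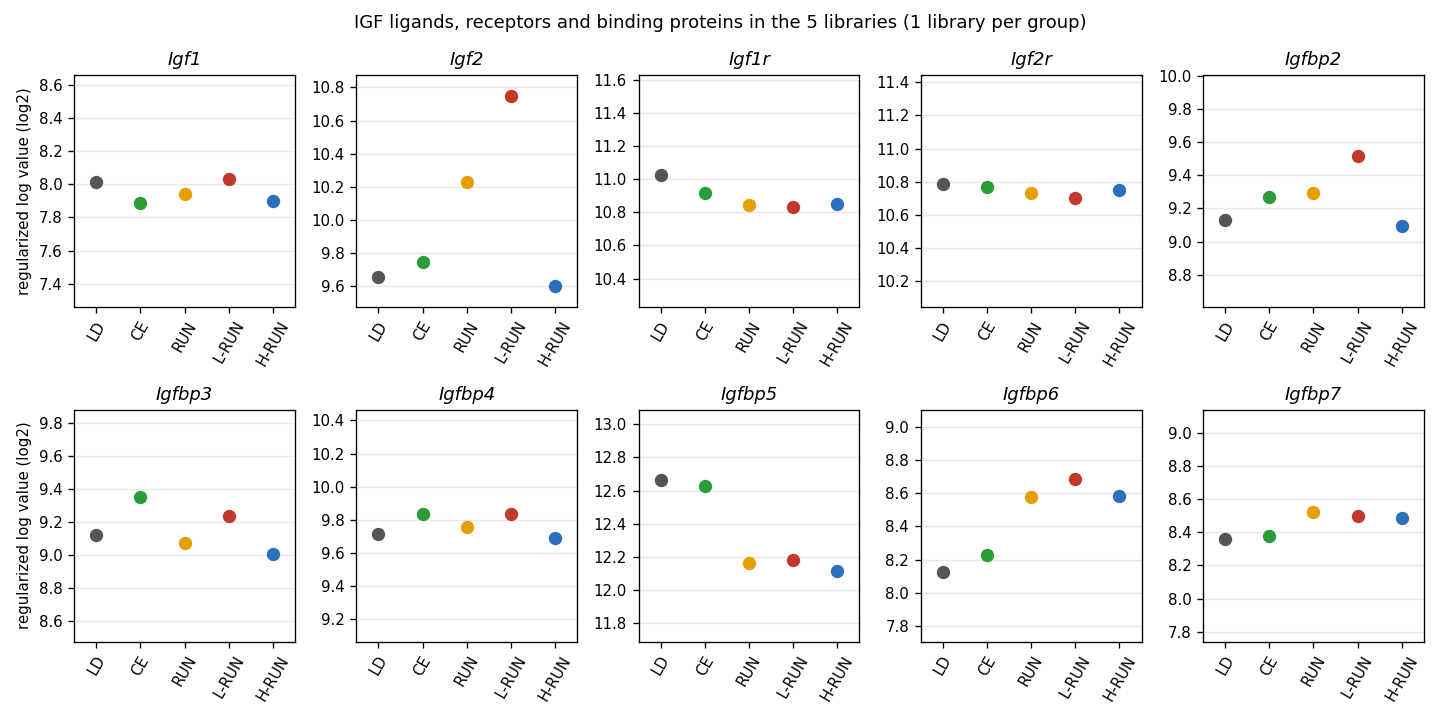
Regularized log value (y axis, log2, each panel spanning 1.4 units) of the 10 IGF genes in the LD, CE, RUN, L-RUN and H-RUN libraries (x axis), 1 point per library. Igf2 is highest in L-RUN at 10.75 and lowest in H-RUN at 9.60, Igfbp5 is near 12.6 for LD and CE and near 12.1 in the running libraries, and Igfbp6 is near 8.6 in the running libraries against 8.13 for LD.

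Igf2 lies on chromosome 7 (142650766 to 142666816, GRCm38), is expressed from the paternal allele in most tissues, and encodes a growth factor of fetal growth that in the adult brain is made mainly by the meninges and the choroid plexus. Its regularized log value was 9.65 for LD, 9.75 for CE, 10.23 for RUN, 10.75 for L-RUN and 9.60 for H-RUN. The highest value was that of L-RUN, RUN lay between L-RUN and the rest, and LD and H-RUN differed by less than 2 technical SDs. Against LD this is a log2 difference of 1.096 for L-RUN (2.14-fold), 0.57 for RUN (1.49-fold), 0.09 for CE and -0.05 for H-RUN, with a technical SD of 0.040. Its range over the 5 libraries, 1.15, was the 3rd largest of the 13550 expressed genes. L-RUN and H-RUN came from different mice, and the direct difference between them was 1.15, or 28.4 technical SDs. Mixing L-RUN with H-RUN in equal parts gave a computed value of 10.29, from which RUN differed by -0.059. Ins2, the insulin gene next to Igf2 on the chromosome, was at 0.73 or 0.74 in each of the 5 libraries, and Igf2as, antisense to Igf2, between 1.99 and 2.01. The preparation named in the labels is not stated to keep the strand, so that reads of Igf2 and of its antisense gene cannot be told apart.

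Many leptomeningeal markers moved with Igf2, but not all. The marker list was chosen with earlier results of these data known, so counts over it are descriptions. Of 16 expressed markers of this list, 10 were at least 0.3 higher in L-RUN than in LD and none was lower, with a median difference of 0.49, while 7 were higher in RUN (median 0.23), 4 were higher in CE (median 0.07), and H-RUN had none higher and 2 lower (median -0.0090). Of all expressed genes, 3.13% passed the cut-off in L-RUN, 1.31% in RUN, 0.598% in CE and 0.827% in H-RUN. Among the markers, Ptgds, the prostaglandin D synthase of the meninges, had a difference from LD of 1.97 for L-RUN and -0.10 for H-RUN. The transporter gene Slc13a4 had 0.83 and -0.02. The 2 markers lower in H-RUN were Ogn (-0.68) and Dcn (-0.52). Their differences were 0.05 and 0.29 for L-RUN, and -0.26 and -0.11 for RUN, where Igf2 was higher than LD. Without Ptgds, which has the highest value on the list, the log2 sum of the other 18 markers differed from LD by 0.14 for CE, 0.14 for RUN, 0.39 for L-RUN and -0.14 for H-RUN. In pooled tissue, more cells of a type and more RNA per cell cannot be told apart, and the part of leptomeningeal tissue in the Igf2 values was not tested. The choroid plexus list had 5 expressed genes of 13, none of which differed from LD by 0.3 for RUN, L-RUN or H-RUN. In CE, 1 of the 5 passed the cut-off, against 0.598% of all expressed genes. This was Ttr, 0.62 higher than LD, while the median of the list was 0.0052. The Igf2 difference in CE was 0.09, and the part of choroid plexus tissue in the Igf2 values was not tested.

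The 3 genes outside the family named here were closest to Igf2 in their 4 differences from LD, by root mean square distance among 519 expressed genes that passed the cut-off in any group. They were Fmod, a small collagen-binding proteoglycan, at a distance of 0.053, Slc13a4 at 0.154 and Apod, a lipid-carrying apolipoprotein, at 0.168. Fmod differed from LD by 0.10 for CE, 0.60 for RUN, 1.01 for L-RUN and 0.01 for H-RUN. Fmod and Slc13a4 are on the leptomeningeal list, and Apod is not.

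Igf1, on chromosome 10 (87858265 to 87937042), encodes the ligand that is known to be made in the brain by microglia, interneurons and other cells, besides reaching it from blood. Its value was 8.01 for LD, 7.89 for CE, 7.94 for RUN, 8.03 for L-RUN and 7.90 for H-RUN. The libraries lay within 0.14 of each other, and no 2 neighbours in their order differed by more than 2 technical SDs (0.094). Some libraries further apart in the order did. In technical SDs, CE differed from LD by -2.64, H-RUN from LD by -2.45 and L-RUN from H-RUN by 2.87. The differences from LD were -0.12 for CE, -0.07 for RUN, 0.02 for L-RUN and -0.12 for H-RUN, and none passed the cut-off. With the trend of differences with transcript length removed, the RUN difference was 0.02 and so changed its sign, and the L-RUN difference was 0.14. The 8 microglial markers had median differences from LD of -0.10 for CE, -0.12 for RUN, -0.11 for L-RUN and -0.11 for H-RUN. Per kb of exon, Igf1 had the lowest level of the 10 genes, with a mean log2 value of 4.65 against 7.60 for Igf2.

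Both receptors had their highest value in LD, and neither passed the cut-off in any group. Igf1r, on chromosome 7 (67952827 to 68233668), had a value of 11.03 for LD, 10.92 for CE, 10.84 for RUN, 10.83 for L-RUN and 10.85 for H-RUN. The running libraries were within 2 technical SDs of their neighbours, while LD stood above CE by 0.11 and CE above H-RUN by 0.07, each more than 2 technical SDs (0.062). The Igf1r differences from LD were -0.18 for RUN, -0.19 for L-RUN and -0.18 for H-RUN with a technical SD of 0.031, and they were -0.08, -0.05 and -0.11 once the length trend was removed. Igf2r, on chromosome 17 (12682406 to 12769664), had a value of 10.79 for LD, 10.77 for CE, 10.73 for RUN, 10.70 for L-RUN and 10.75 for H-RUN, and no neighbours in the order of these levels differed by more than 2 technical SDs. Its difference from LD in L-RUN, the other end of the order, was -0.09, or -2.81 technical SDs. With the length trend removed this difference became 0.03, and the signs in CE, RUN and H-RUN also turned. Airn, the noncoding gene antisense to Igf2r, had values between 4.13 and 4.19, and reads from the overlap of both genes cannot be told apart without strand.

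Among the binding proteins, Igfbp5 and Igfbp6 differed from LD in every running library, in opposite directions. Igfbp5, on chromosome 1 (72857932 to 72874884), encodes a secreted protein that binds IGFs and the extracellular matrix. It had a value of 12.66 for LD, 12.62 for CE, 12.16 for RUN, 12.18 for L-RUN and 12.11 for H-RUN. LD and CE were high and within 2 technical SDs of each other (0.044), and all 3 running libraries were lower than both by at least 0.44. Against LD, Igfbp5 was lower by 0.50 for RUN, 0.48 for L-RUN and 0.55 for H-RUN on the log2 scale (0.71-fold, 0.72-fold and 0.68-fold), and its difference in CE was -0.04, with a technical SD of 0.022. The direct difference of L-RUN from H-RUN was 0.07, and that of CE from RUN was 0.46. RUN was 0.015 above the computed mixture.

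Igfbp6, on chromosome 15 (102144362 to 102149511), encodes the binding protein known for its preference for IGF2 over IGF1. Its value was 8.13 for LD, 8.23 for CE, 8.58 for RUN, 8.68 for L-RUN and 8.58 for H-RUN. The running libraries were all above LD and CE, by at least 0.35. The log2 differences from LD were 0.45 for RUN (1.37-fold), 0.56 for L-RUN (1.47-fold), 0.46 for H-RUN (1.37-fold) and 0.10 for CE, with a technical SD of 0.047. L-RUN was above H-RUN by 0.10, and CE was below RUN, with a difference of -0.35. In H-RUN, where the leptomeningeal list had a median difference of -0.0090 and a summed level below that of LD, Igfbp6 and Igfbp5 had differences of 0.46 and -0.55. The part of leptomeningeal tissue in the Igfbp5 and Igfbp6 values was not tested.

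Of the 13550 expressed genes, 0.347% passed the cut-off in RUN, L-RUN and H-RUN alike, and of the 10 IGF genes Igfbp5 and Igfbp6 did so. Closest to Igfbp5 in the differences from LD were Grik3 (root mean square distance 0.076), a kainate receptor subunit, Parm1 (0.077), a membrane mucin-like protein, and Matn2 (0.081), a matrix protein of the matrilin family. Grik3 differed from LD by 0.05 for CE, -0.46 for RUN, -0.37 for L-RUN and -0.54 for H-RUN. Closest to Igfbp6 were Robo3 (0.068), an axon guidance receptor, Ppl (0.069), the desmosomal protein periplakin, and Htra4 (0.090), a secreted serine protease. Robo3 differed from LD by -0.03 for CE, 0.46 for RUN, 0.52 for L-RUN and 0.43 for H-RUN.

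**Figure D2:**
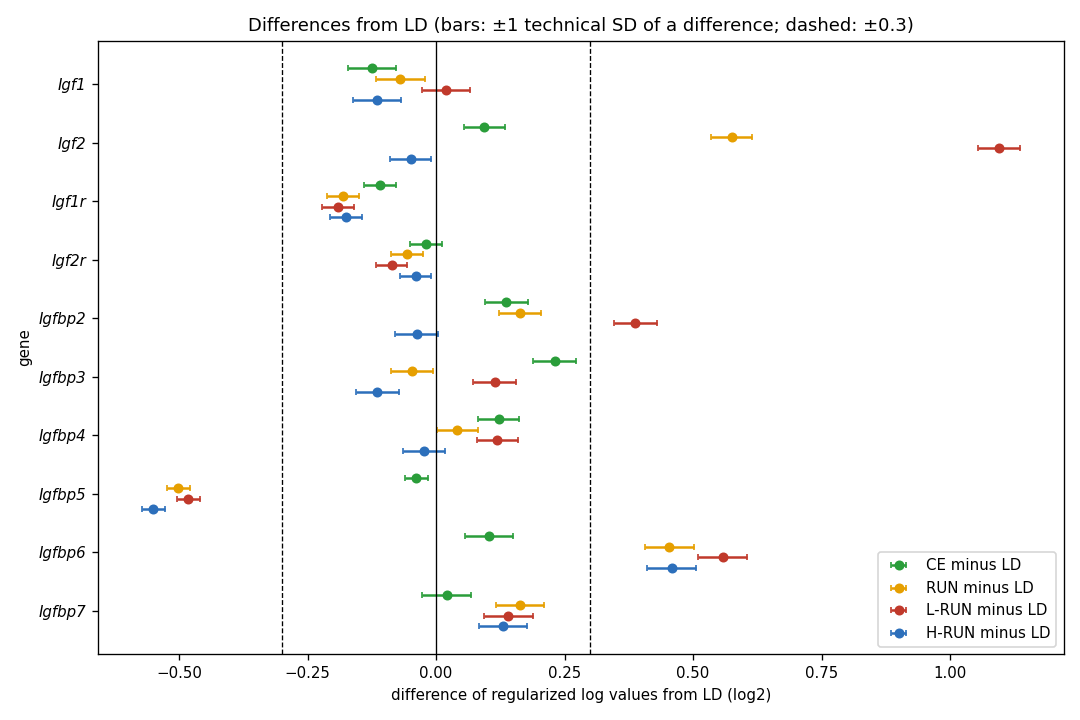
Difference of the regularized log value from LD (x axis, log2) for the 10 IGF genes (y axis) in CE, RUN, L-RUN and H-RUN, with bars of 1 technical SD on either side and dashed lines at the cut-off of 0.3. Igfbp5 lies between -0.55 and -0.48 and Igfbp6 between 0.45 and 0.56 in the 3 running libraries, and Igf2 passes the cut-off in RUN (0.57) and L-RUN (1.096).

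Igfbp2 lies next to Igfbp5 on chromosome 1 (72824503 to 72852474), with 5457 bases between the ends of the genes, and encodes a binding protein that is abundant in cerebrospinal fluid and made by meninges, choroid plexus and astrocytes. Its value was 9.13 for LD, 9.27 for CE, 9.29 for RUN, 9.52 for L-RUN and 9.09 for H-RUN. The highest value was that of L-RUN, RUN and CE were alike within 2 technical SDs (0.083), and so were LD and H-RUN. The difference from LD was 0.39 for L-RUN (1.31-fold), 0.16 for RUN, 0.14 for CE and -0.04 for H-RUN, with a technical SD of 0.042, and L-RUN alone passed the cut-off. These neighbouring genes differed from LD in opposite directions in L-RUN (0.39 for Igfbp2 and -0.48 for Igfbp5), while in H-RUN the difference was -0.04 for Igfbp2 and -0.55 for Igfbp5. L-RUN was above H-RUN by 0.43. The order of the libraries for Igfbp2, from high to low, was L-RUN, RUN, CE, LD and H-RUN, which was also the order for Igf2 and for the summed leptomeningeal markers (without Ptgds the sum was 12.05 for CE and 12.04 for RUN, which swaps them), and the part of leptomeningeal tissue in the Igfbp2 values was not tested. Among the genes closest to Igfbp2 in the differences from LD were Anxa2 (root mean square distance 0.019), a calcium-dependent membrane-binding protein, and Col9a2 (0.038), a chain of collagen IX.

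Igfbp3, on chromosome 11 (7206086 to 7213923), encodes the main carrier of IGFs in blood and was the member with the largest difference from LD in CE. Its value was 9.12 for LD, 9.35 for CE, 9.07 for RUN, 9.23 for L-RUN and 9.01 for H-RUN. CE was highest, 0.23 above LD with a technical SD of 0.042, which does not pass the cut-off. The difference from LD was 0.11 for L-RUN, -0.05 for RUN and -0.11 for H-RUN, and CE was above RUN by 0.28. Against the mean of LD and CE, the L-RUN difference was -0.0012. RUN lay 0.051 below the computed mixture.

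Igfbp4, on chromosome 11 (99041244 to 99054392), encodes a binding protein that restrains IGF action until the protease PAPP-A cleaves it. It had a value of 9.72 for LD, 9.84 for CE, 9.76 for RUN, 9.84 for L-RUN and 9.69 for H-RUN. No neighbours in the order of these levels differed by more than 2 technical SDs (0.081), and the differences from LD were between -0.02 for H-RUN and 0.12 for CE. In technical SDs, CE was 3.03 and L-RUN 2.97 above LD, and L-RUN was 3.55 above H-RUN. Igfbp7, on chromosome 5 (77349240 to 77408041), binds IGFs weakly and is made by endothelial cells. Its value was 8.36 for LD, 8.38 for CE, 8.52 for RUN, 8.50 for L-RUN and 8.49 for H-RUN. The running libraries stood above LD by 0.16, 0.14 and 0.13 in this order and above CE as well, with no passing of the cut-off, whereas the difference of CE from LD was 0.02. With the length trend removed, the Igfbp7 differences from LD were 0.10 for RUN, 0.06 for L-RUN and 0.09 for H-RUN, with a technical SD of 0.047. The 9 endothelial markers had median differences from LD between -0.06 and 0.01 in the 4 groups, and Flt1, a VEGF receptor gene, was lower in RUN (-0.31) and L-RUN (-0.43).

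Counts over the 10 genes are set beside the share of all 13550 expressed genes that passed the same cut-off. In CE, 0 of 10 IGF genes passed it, against 0.598% of expressed genes (0.332% higher and 0.266% lower), and the median difference of the 10 genes from LD was 0.06. In RUN, 3 of 10 passed it against 1.31%, namely Igf2 and Igfbp6, which were higher (0.362% of expressed genes), and Igfbp5, which was lower (0.952%), with a median of -0.0027. In L-RUN, 4 of 10 passed it against 3.13%, with Igfbp2 added to the higher genes (0.797% higher and 2.33% lower over expressed genes), and the median was 0.12. In H-RUN, Igfbp5 and Igfbp6 were the 2 that passed it, against 0.827% (0.354% higher and 0.472% lower), and the median was -0.04. The median difference over all expressed genes was between -0.0035 and -0.0013 in these comparisons. They share the LD library, so that its error enters all 4. The members were chosen with earlier results of these data known, and some of them had been named for their changes, so the counts are descriptions of these libraries.

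Comparisons that did not use LD are made from library values already given, and so add no separate measurement. Between L-RUN and H-RUN, which share no mice, 2 of 10 IGF genes passed the cut-off (1.54% of expressed genes, with 0.561% higher in L-RUN and 0.974% lower), and both were higher in L-RUN. These were Igf2 (1.15) and Igfbp2 (0.43), followed by Igfbp3 at 0.23. Igfbp5, Igfbp6 and Igfbp7 had differences of 0.07, 0.10 and 0.01 between these libraries, and their technical SDs were 0.022, 0.047 and 0.047. Between CE and RUN, 3 of 10 passed it (0.834% of expressed genes, with 0.539% higher in CE and 0.295% lower), Igfbp5 higher in CE by 0.46, Igf2 with a difference of -0.48 and Igfbp6 with a difference of -0.35.

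Levels can be compared between genes only per length, and for this the log2 of exon length in kb was subtracted from each value. On this scale Igfbp5 was highest, with a mean of 9.76 over the 5 libraries, followed by Igfbp2 at 8.72, Igfbp6 at 8.29, Igfbp7 at 8.18, Igfbp4 at 7.80, Igf2 and Igf2r at 7.60, Igfbp3 at 7.51, Igf1r at 7.38 and Igf1 at 4.65. In L-RUN, Igf2 was at 8.36 per kb of exon, above Igfbp7 at 8.23, while in LD it was at 7.26 against 8.08 for Igfbp7. The lengths are unions of annotated exons, and a gene that uses a shorter transcript has a higher level than given here.

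The make-up of binding protein mRNA was computed from these levels on the linear scale. The share of Igfbp5 in the summed level of the 6 Igfbp genes was 45.4% for LD, 42.7% for CE, 34.2% for RUN, 32.6% for L-RUN and 34.6% for H-RUN. The share of Igfbp6 was 10.6% for LD, 10.96% for CE, 15.4% for RUN, 15.6% for L-RUN and 16.2% for H-RUN. Igfbp5 thus held a smaller and Igfbp6 a larger share in all 3 running libraries than in LD or CE, and Igfbp2 had its largest share in L-RUN, at 21.2% against 16.1% for LD. The log2 of the summed level of all 6 genes differed from LD by 0.05 for CE, -0.09 for RUN, -0.0056 for L-RUN and -0.16 for H-RUN, and without Igfbp5 by 0.12, 0.18, 0.30 and 0.10. Without division by length, the share of Igfbp5 was 71.7% for LD, 69.2% for CE, 62.2% for RUN, 60.6% for L-RUN and 62.7% for H-RUN, so that the order of the libraries was kept. These shares have no replicate and no counting interval.

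**Figure D3:**
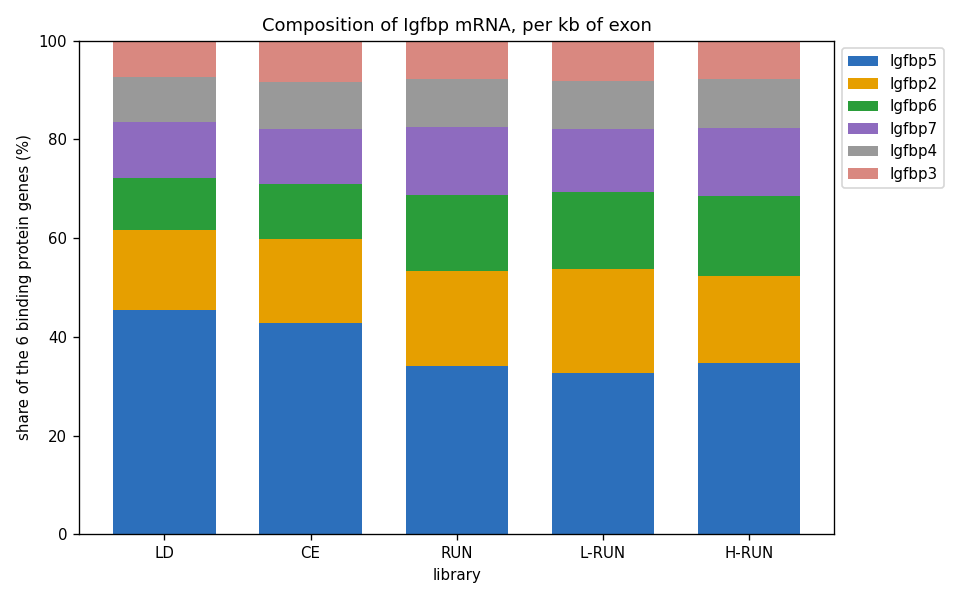
Share of each of the 6 binding protein genes (y axis, percent, stacked bars from 0 to 100) in their summed linear level per kb of exon, for the 5 libraries (x axis). The share of Igfbp5 is 45.4% for LD and 42.7% for CE and between 32.6% and 34.6% in the running libraries.

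The rest of the pathway was followed with 4 lists of 76 genes, of which 75 were in the files (Hras was not found) and 70 were expressed. At the cut-off, CE had 1 of the 70 genes past it (higher), which is 1.43% against 0.598% of all expressed genes. RUN had 4 (1 higher and 3 lower), or 5.71% against 1.31%, L-RUN had 6 (1 higher and 5 lower), or 8.57% against 3.13%, and H-RUN had 2 (1 higher and 1 lower), or 2.86% against 0.827%. The medians of the 70 genes were -0.03, -0.06, -0.06 and -0.02 in these groups. These lists too were chosen with earlier results of these data known, so the counts are descriptions.

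Among proteases and other factors that set the amount of free IGF, 11 of 14 genes were expressed. Pappa, which encodes the protease PAPP-A that cleaves IGFBP4 and IGFBP5, had a value of 7.16 for LD, 7.14 for CE, 7.50 for RUN, 7.28 for L-RUN and 7.61 for H-RUN. It was highest in H-RUN, with a difference from LD of 0.46 there, 0.34 for RUN, 0.12 for L-RUN and -0.01 for CE, and L-RUN differed from H-RUN by -0.33. Adamts1, a metalloprotease gene of the ADAMTS family, was lower than in LD in all 3 running libraries. Its differences were -0.36 for RUN, -0.35 for L-RUN, -0.32 for H-RUN and -0.20 for CE. Plat, the tissue plasminogen activator gene, was 0.32 higher than LD in L-RUN and 0.26 higher in RUN. Igfbpl1, an Igfbp-like gene known from immature neurons, did not pass the cut-off and was named after its values were seen. Its value was 7.15 for LD, 7.13 for CE, 7.43 for RUN, 7.41 for L-RUN and 7.40 for H-RUN. Igfbp1 (2.45 to 2.47) and Igfals (-0.18 to -0.17), which encode carriers made by the liver, were below the level of expressed genes in every library.

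Among the receptors and adaptors, 15 of 17 genes were expressed, and Irs2 was the gene of this list that passed the cut-off. Of all expressed genes, 3.86% passed it against LD in any group. Irs2 encodes a substrate of the insulin and IGF1 receptors and had a value of 9.43 for LD, 9.42 for CE, 9.13 for RUN, 9.01 for L-RUN and 9.26 for H-RUN. Its difference from LD was -0.31 for RUN, -0.42 for L-RUN, -0.18 for H-RUN and -0.02 for CE (technical SD 0.042). Insr, the insulin receptor gene, lay between 11.02 for CE and 11.09 for LD.

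In the PI3K, AKT and mTOR branch, all 30 genes were expressed. In L-RUN, where 3.13% of all expressed genes passed the cut-off (2.33% lower), 3 of the 30 did, all lower than in LD. Among them were the translational repressor gene Eif4ebp2 (-0.38) and the forkhead factor gene Foxo3 (-0.35). In H-RUN the differences of Eif4ebp2 and Foxo3 were -0.17 and -0.02, and in RUN -0.26 and -0.18. Foxo6, a forkhead factor gene of the hippocampus, was the gene of this branch that passed the cut-off in CE, as did 0.598% of all expressed genes. Its difference was 0.31 there and between -0.07 and 0.02 in the running libraries. In the RAS and ERK branch, 0 of the 14 expressed genes passed the cut-off in any group. Over all expressed genes this share was 3.86%, at which 14 genes can easily hold none. The differences of this branch in L-RUN were between -0.27 and 0.12.

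**Figure D4:**
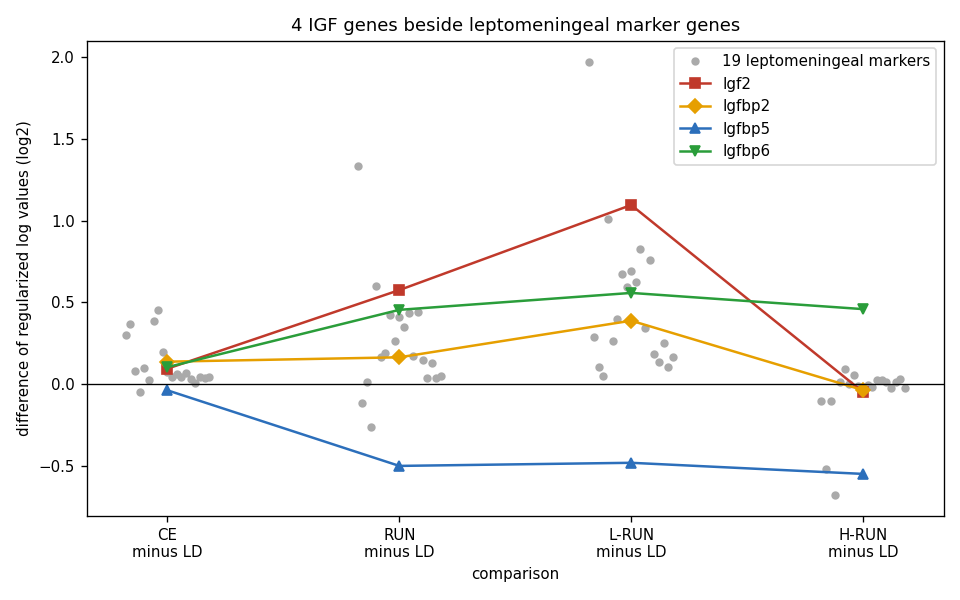
Difference of the regularized log value from LD (y axis, log2) in CE, RUN, L-RUN and H-RUN (x axis) for Igf2, Igfbp2, Igfbp5 and Igfbp6 (coloured, joined by lines) and for 19 leptomeningeal markers (grey points). Igf2 and Igfbp2 are highest in L-RUN (1.096 and 0.39) and near 0 in H-RUN, as are most markers, while Igfbp5 (-0.55) and Igfbp6 (0.46) are away from 0 in H-RUN.

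For every IGF gene, the RUN value lay within 2 technical SDs of that computed by mixing H-RUN with L-RUN. The technical SD itself comes from such residuals over all expressed genes, so most genes must lie that close. Of all expressed genes, 2.23% lay further away. The residuals of the IGF genes were between -0.059 for Igf2 and 0.028 for Igfbp7, with a median size of 0.025 against 0.021 over all expressed genes. The intermediate values of Igf2 in RUN (a difference from LD of 0.57, against 0.63 computed for the mixture) and of Igfbp2 (0.16 against 0.19) come from pooled RNA of the same mice and add no measurement of other mice.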

How the data were processed

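RNA of pooled dentate gyri was sequenced as 5 libraries (LD, CE, RUN, L-RUN, H-RUN), 1 per group, grouped by their labels. The authors trimmed adapters, mapped reads to mm10 with TopHat2 2.0.10, used HTSeq to count them per RefSeq gene, and deposited regularized log values (log2) from DESeq2 1.10.1, normalized over all libraries. Depth is unknown and the shrinkage cannot be undone, so no count model or test was run. Library preparation is not stated to be stranded.

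Here, differences of these values were called at 0.3 among genes with a mean of at least 5. The technical SD came from RUN minus the log2 of the linear mean of L-RUN and H-RUN, by median absolute deviation per decile of expression, scaled to a difference of 2 libraries, which assumes equal noise and an equal mixture. Exon lengths and positions were from GENCODE M21 (GRCm38), with lengths for 94.2% of expressed genes, and promoters from RefSeq. The members and gene lists were chosen with earlier results of these data known. Named were the members, list genes past 0.3 (the 4 largest per pathway list and 3 per marker list at most), Insr, Irs2 and the 3 genes closest to each member past 0.3. Some genes that this rule names are not reported here. Alternatives were a cut-off of 0.4, median centring, quantile normalization, a minimum mean of 7 or none, a bar of 3 technical SDs, removal of the length trend (lowess, fraction 0.3), LD and CE as joint baseline, and a log-scale mixture. The steps were run on simulated data with changes larger than the cut-off, even noise and an exact mixture. That simulation had no shrinkage and no differences between mice, so it checks the computation and not its fit to these data. Python 3.11.15, numpy 2.4.6, pandas 2.3.3, statsmodels 0.14.6 and matplotlib 3.10.9 were used.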

Additional observations from a re-analysis of the deposited data

Results flagged for a closer look

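Igf2 and Igfbp3 had differences from LD of opposite sign in a pair of groups, each larger than 1 technical SD. Igf2 was 1.096 above LD in L-RUN and had a difference of -0.05 for H-RUN, so that these libraries were 1.15 apart. Igfbp3 had a difference of 0.11 for L-RUN and -0.11 for H-RUN, which were 0.23 apart, and of 0.23 for CE and -0.05 for RUN, which were 0.28 apart. Against the mean of LD and CE in place of LD, the Igfbp3 difference was -0.0012 for L-RUN, so that its sign was no longer opposite to that of H-RUN. With 1 library per group, none of these differences was tested.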

How the results depend on the processing

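The counts of IGF genes past the cut-off stayed within 1.5 times their main value under every alternative run, in all 6 comparisons. Some alternatives could not change them. Every IGF gene had a mean above the other minimum means, and its bar of 3 technical SDs lay below the cut-off. The largest shift under median centring was 0.0035. The counts also kept their main values under quantile normalization, with the length trend removed, and with the joint baseline where it was run. At a cut-off of 0.4 the count in L-RUN was 3 in place of 4, since Igfbp2 was left out, and in CE against RUN 2 in place of 3. Over 210 recomputed differences of single IGF genes, 0 turned the sign of a difference past the cut-off, and the largest shift was 0.14, with the length trend removed. Signs of smaller differences did turn. With LD and CE averaged as the baseline, Igfbp3 went from 0.11 to -0.0012 for L-RUN and Igfbp4 from 0.04 to -0.02 for RUN. With the length trend removed, the sign turned for Igf1 in RUN, for Igf2r in all 4 groups against LD, for Igfbp7 in CE (0.02 to -0.02), and between L-RUN and H-RUN for Igf1r (-0.02 to 0.06), Igf2r (-0.05 to 0.02) and Igfbp7 (0.01 to -0.03).

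Counts of the 70 pathway genes depended more on the setting. At a cut-off of 0.4 CE had 0, RUN had 0, L-RUN had 2 and H-RUN had 1, in place of 1, 4, 6 and 2. With the length trend removed CE had 0, RUN had 2 and H-RUN had 1, and with LD and CE averaged as the baseline RUN had 1 and H-RUN had 1. The cause was not tested. The mixture on the log scale gave a median residual size of 0.018 for the IGF genes.

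No paired analysis was possible because each group has 1 library. Differences between mice were not measured, leaving out a replicate was not possible, and unknown depth means that the counting error of each value is not known.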

Other observations

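Among genes around Igf2, its mRNA-binding proteins and other imprinted genes, 11 of 16 were expressed. Plagl1, an imprinted zinc finger factor gene, had a value of 10.08 for LD, 10.52 for CE, 10.06 for RUN, 10.32 for L-RUN and 9.89 for H-RUN. Its difference from LD of 0.44 for CE was the sole one of this list past the cut-off in any group. Of all expressed genes, 3.86% passed it in any group and 0.598% in CE. L-RUN was 0.43 above H-RUN for Plagl1. H19, the imprinted noncoding RNA gene near Igf2, was below the level of expressed genes, with 4.53 for LD, 4.78 for CE, 4.54 for RUN, 4.59 for L-RUN and 4.52 for H-RUN, and was named after its values were seen.

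The marker lists were chosen with earlier results of these data known, so the shares given here are descriptions. In L-RUN, 62.5% of the expressed leptomeningeal markers passed the cut-off, against 3.13% of all expressed genes. The pyramidal cell list had 37.5%, the granule cell list 30% and the astrocyte list 25%, and the other lists had less. In RUN, H-RUN and CE, 1.31%, 0.827% and 0.598% of all expressed genes passed it. In L-RUN, 1 of 8 mural markers passed the cut-off (Vtn, 0.43), as did 2 of 8 astrocyte markers (Slc1a2, -0.36, and Slc1a3, -0.30). Of these 8 astrocyte markers, 0 were above LD in L-RUN, and their median difference was -0.09. No marker of microglia or oligodendrocytes (8 each) passed the cut-off in any group. Of 10 interneuron markers, Sst passed it in CE (0.34) and L-RUN (0.30). Of 10 granule cell markers, C1ql2 passed it in RUN (0.37), L-RUN (0.37) and H-RUN (0.40), and in L-RUN Plk5 (0.36) and Prox1 (-0.41) did so as well. Of 8 pyramidal cell markers, 3 passed the cut-off in L-RUN and were lower than LD. They were Fibcd1, Wfs1 (-0.33) and Mpped1 (-0.33, named after its values were seen). In L-RUN, 1 of the 8 was above LD, and the median difference was -0.27. Bok was higher in H-RUN (0.41). Fibcd1 was 0.31 above LD in CE and had a difference of -0.46 for RUN, -0.46 for L-RUN and -0.52 for H-RUN.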
